A study of Mus musculus with 3 samples.

Results

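The TRIM family was followed in bone marrow-derived macrophages of the mouse strain C57BL/6J, 10 minutes after 100 ng/ml Lipid A, the portion of lipopolysaccharide that TLR4 senses. Total RNA of the cytosolic fraction was sequenced after removal of ribosomal RNA, in 1 group of 3 biological replicates. Untreated cells were not analysed here, so every value is a level at that time and not an induction. All 3 libraries carry the same donor identifier, and separate animals or cultures are not named in the labels. The p-values therefore measure only the spread between these samples, which may be technical. Sex and age were not collected. Members were the genes with at least 1 protein-coding transcript whose symbol is Trim followed by a number and, for some, a letter from a to d. This rule found 68 of the 55536 annotated genes, and it used no measured value.

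TRIM proteins are named for a tripartite motif: a RING finger that recruits a ubiquitin-conjugating enzyme, B-box zinc fingers and a coiled coil through which they pair. A variable C-terminal part, often a PRY-SPRY domain that binds the target, gives each its specificity. In macrophages several of them add ubiquitin to the sensors and adaptors of innate immunity, and many of their genes are known to be induced by interferon. Mice carry a set of close relatives of human TRIM5, the retrovirus restriction factor, side by side on chromosome 7. Other branches of the family act in muscle, in germ cells and in chromatin.

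The cluster on chromosome 7 is shown first, because it holds close copies, of which the most alike pair lies far apart in level. It spans chr7:104218793-104507849 (mm10, GENCODE M21), 289 kb that hold 10 members and no other protein-coding gene. In the protein-coding transcript with the highest level of each gene, Trim34a and Trim34b share 98.8% of 1455 coding bases. The first 60 coding bases of each follow, with the bases that differ from Trim34a in capitals (plus strand, chr7:104247731-104247790 for Trim34a and chr7:104329548-104329607 for Trim34b), chosen after the levels were known.
Trim34a: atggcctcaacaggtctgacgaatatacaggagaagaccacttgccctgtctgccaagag
Trim34b: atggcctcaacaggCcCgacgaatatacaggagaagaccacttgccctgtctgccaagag
Trim12c, Trim12a and Trim5 form a second set of copies. Trim5 matches 96.6% of 1491 aligned coding bases of Trim12c, and Trim12a, with a shorter coding sequence, matches 96.4% of 891. Their coding starts lie on the minus strand at chr7:104348288-104348347, chr7:104307272-104307331 and chr7:104279673-104279732, with bases that differ from Trim12c in capitals.
Trim12c: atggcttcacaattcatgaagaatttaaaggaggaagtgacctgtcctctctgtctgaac
Trim12a: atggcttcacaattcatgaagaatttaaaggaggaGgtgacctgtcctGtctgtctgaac
Trim5: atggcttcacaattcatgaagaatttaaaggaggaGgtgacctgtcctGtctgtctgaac
Over these 60 bases Trim12a and Trim5 each differ from Trim12c at 2 positions. The Trim30 genes are less alike, with Trim30d, Trim30b and Trim30c matching 89.98%, 88.3% and 83.2% of the aligned coding bases of Trim30a. These shares cover 1038, 606 and 1488 aligned bases, with 453, 885 and 51 gap positions left out, so their order compares unlike parts of the gene.

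Promoters were searched for GAAANNGAAA on both strands, the core of the interferon-stimulated response element that interferon regulatory factors bind. Of 32851 mouse promoters of 300 bases from RefSeq (GRCm38.p6, 250 bases before the start site to 50 after), 3.44% held a match. Counted by gene, 1079 of 27025 genes did. Promoters were found for 53 of the 68 members, and 9 of these 53 genes held one: Trim12a, Trim12c, Trim2, Trim21, Trim26, Trim30a, Trim30d, Trim34a and Trim5. In the cluster, 6 of 10 genes held one, beside 4 of the 8 interferon response genes that had a promoter in the table. The window from 100 bases before the start base to 29 bases after it is given below for the 3 cluster members with the highest levels, and for Trim34a and Trim34b as the most alike pair. Each is written 5′ to 3′ along its gene, with the match in capitals. The regions are chr7:104465164-104465293 for Trim30a, chr7:104507820-104507949 for Trim30d and chr7:104315466-104315595 for Trim12a on the minus strand, and chr7:104244357-104244486 for Trim34a and chr7:104329371-104329500 for Trim34b on the plus strand.
Trim30a: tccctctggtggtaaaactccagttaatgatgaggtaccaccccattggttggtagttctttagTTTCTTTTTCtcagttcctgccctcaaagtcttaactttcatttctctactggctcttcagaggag
Trim30d: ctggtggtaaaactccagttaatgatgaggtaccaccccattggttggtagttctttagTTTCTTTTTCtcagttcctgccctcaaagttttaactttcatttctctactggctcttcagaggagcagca
Trim12a: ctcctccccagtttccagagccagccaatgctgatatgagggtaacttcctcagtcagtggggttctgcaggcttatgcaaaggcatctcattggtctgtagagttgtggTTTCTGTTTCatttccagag
Trim34a: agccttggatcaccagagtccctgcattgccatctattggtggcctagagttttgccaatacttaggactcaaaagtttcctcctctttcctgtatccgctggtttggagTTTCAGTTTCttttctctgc
Trim34b: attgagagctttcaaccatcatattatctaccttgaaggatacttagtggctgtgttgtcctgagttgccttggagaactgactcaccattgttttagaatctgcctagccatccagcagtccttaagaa
All the matches shown are TTTCNNTTTC, the motif read on the other strand. Counted from the start base as 0, the match runs from -36 to -27 in Trim30a, from -41 to -32 in Trim30d, and from 10 to 19 in both Trim12a and Trim34a. RefSeq gives Trim30a a second start 19068 bases inside the gene, whose match runs from 2 to 11. Trim34b has no match in its 300 bases. The 300-base promoters of Trim34a and Trim34b share 60.5% of aligned bases, against 95.0% for Trim12a with Trim12c and 93.9% for Trim5 with Trim12c. Trim30a shares 93.9% with Trim30d, 87.9% with Trim30c, which has no match, and 56.1% with Trim30b. Gaps are left out of these shares, so they do not cover whole promoters alike. The aligned bases were 295 for Trim30d, 199 for Trim30c, with 202 gap positions, and 269 for Trim30b, and 258 for Trim34a with Trim34b. A match is a description of the letters and no evidence of binding.

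All 10 genes of the cluster had counts, and in every library 7 reached 1 TPM (transcripts-per-million, a share that allows for transcript length): Trim30a, Trim30d, Trim12a, Trim34a, Trim12c, Trim30c and Trim5. They made up most of a cluster total of 96.7 ± 6.27 TPM (SD, n = 3), which was 29.7% of the TPM of the whole family. Trim30a (ENSMUSG00000030921.17, chr7:104409025-104465193), which in mice restrains NF-kB signalling by driving the loss of the adaptors TAB2 and TAB3, had 40.89, 34.22 and 34.81 TPM in replicates 1, 2 and 3. Its highest library was replicate 1, and replicates 2 and 3 were in the opposite order on normalized counts, given further on. Trim30d had 15.85, 13.87 and 13.81 TPM, and Trim30c had 9.45, 8.28 and 7.86 TPM. Trim30b, the remaining gene of that set, had 0.52, 0.29 and 0.35 TPM, below every value of the other Trim30 genes.

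Trim34a, with 11.61, 10.36 and 10.24 TPM, was far above its copy Trim34b, with 0.02, 0.06 and 0.05 TPM. The promoter with a match belonged to the higher of the pair. Of the 50-base stretches of the most abundant protein-coding transcript, 37.8% were found only in Trim34a and 41.0% only in Trim34b. A read of 50 bases in the rest cannot be assigned from its sequence alone. Read length and pairing were not considered. Trim34b was the gene sharing most with Trim34a, at 41.5% of its stretches, and others shared some too. A total of 16.7 expected counts was given to Trim34b over the 3 libraries. Trim12a had 13.19, 14.83 and 14.01 TPM, Trim12c had 9.23, 8.92 and 8.83 TPM, and Trim5 had 2.79, 2.33 and 2.47 TPM. Their unique stretches were 68.8%, 65.6% and 61.6%, which makes the split between these 3 less certain than that between the Trim30 genes, where 91.7% or more was unique to each. Trim6, at the other end of the cluster and known for its part in signalling through the kinase encoded by Ikbke, had 0.35, 0.26 and 0.28 TPM. Antisense genes without a protein overlap Trim12a and Trim34a, and their reads could be counted with these.

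**Figure D1:**
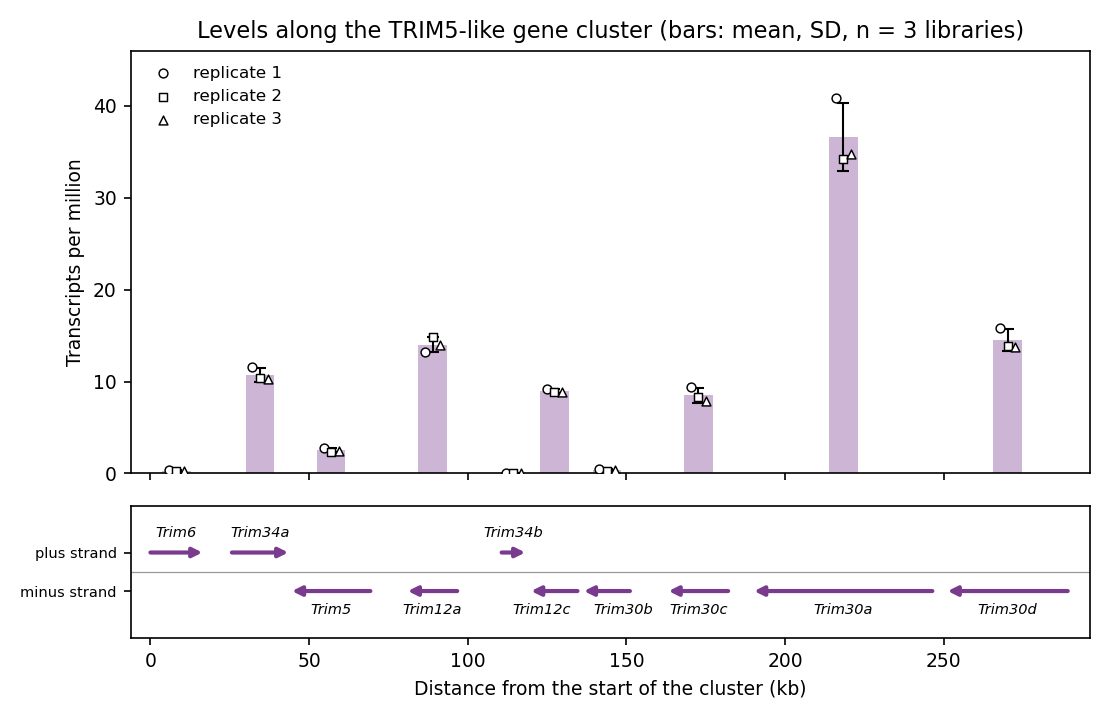
TPM of the 10 genes of the chromosome 7 cluster (bars, mean; whiskers, SD of 3 libraries; symbols, libraries) above a map of their positions and strands by distance in kb from the cluster's start. Trim30a stands at 36.6 TPM, and Trim34b, Trim6 and Trim30b are all below 1 TPM.

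Within the cluster, the 6 genes with a motif match were all at 1 TPM or more. Of the 4 without one, Trim30c was at 8.53 ± 0.82 TPM (SD, n = 3), and Trim6, Trim30b and Trim34b were below 1 TPM. The start site that RefSeq gives for Trim30b lies 11238 bases inside the gene as GENCODE draws it, so its window is not upstream of the whole gene. Over all members with a promoter in the table, 8 of 23 genes at 1 TPM or more held a match and 1 of 30 below it did, Trim2. Of those 8, 6 are the cluster genes, whose promoters include near copies. Counted by promoter, GAAANNGAAA was in 14.9% of the members' promoters and 3.44% of all. The other 3 patterns searched were counted in the same windows. GGGANNNNCC, a loose NF-kB site, was in 14.9% of the members' promoters and 20.7% of all. TGANTCA, the AP-1 site, was in 14.9% and 7.81%, and TATAAA in 11.9% and 13.6%. Split at 1 TPM as above, GGGANNNNCC was in 4 of 23 genes and in 6 of 30 below. TGANTCA was in 3 of 23 and 6 of 30, and TATAAA in 2 of 23 and 5 of 30. No member promoter had a GAAANNGAAA match that overlapped a match of these 3.

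Across the family, 32 of 68 members (47.1%) reached 1 TPM in each library, beside 41.8% of 21901 genes with a protein-coding transcript. Their median was 7.13 TPM, and that of the 9379 protein-coding genes at a mean of 1 TPM or more was 7.36 TPM. The family summed to 325.68, 318.2 and 333.67 TPM in the 3 libraries. Trim30a and Trim25 held 21.8% of that total, and they with Trim28, Trim14, Trim35 and Trim8 held 48.9%. Of the 32, 12 had a mean of 10 TPM or more, 9 lay between 5 and 10, 6 between 2 and 5, and 5 between 1 and 2. In the order of mean TPM, the ranges of neighbours overlapped in 21 of 31 pairs, so most neighbouring ranks are not separated by the libraries. Trim30a and Trim25 are such a pair.

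**Figure D2:**
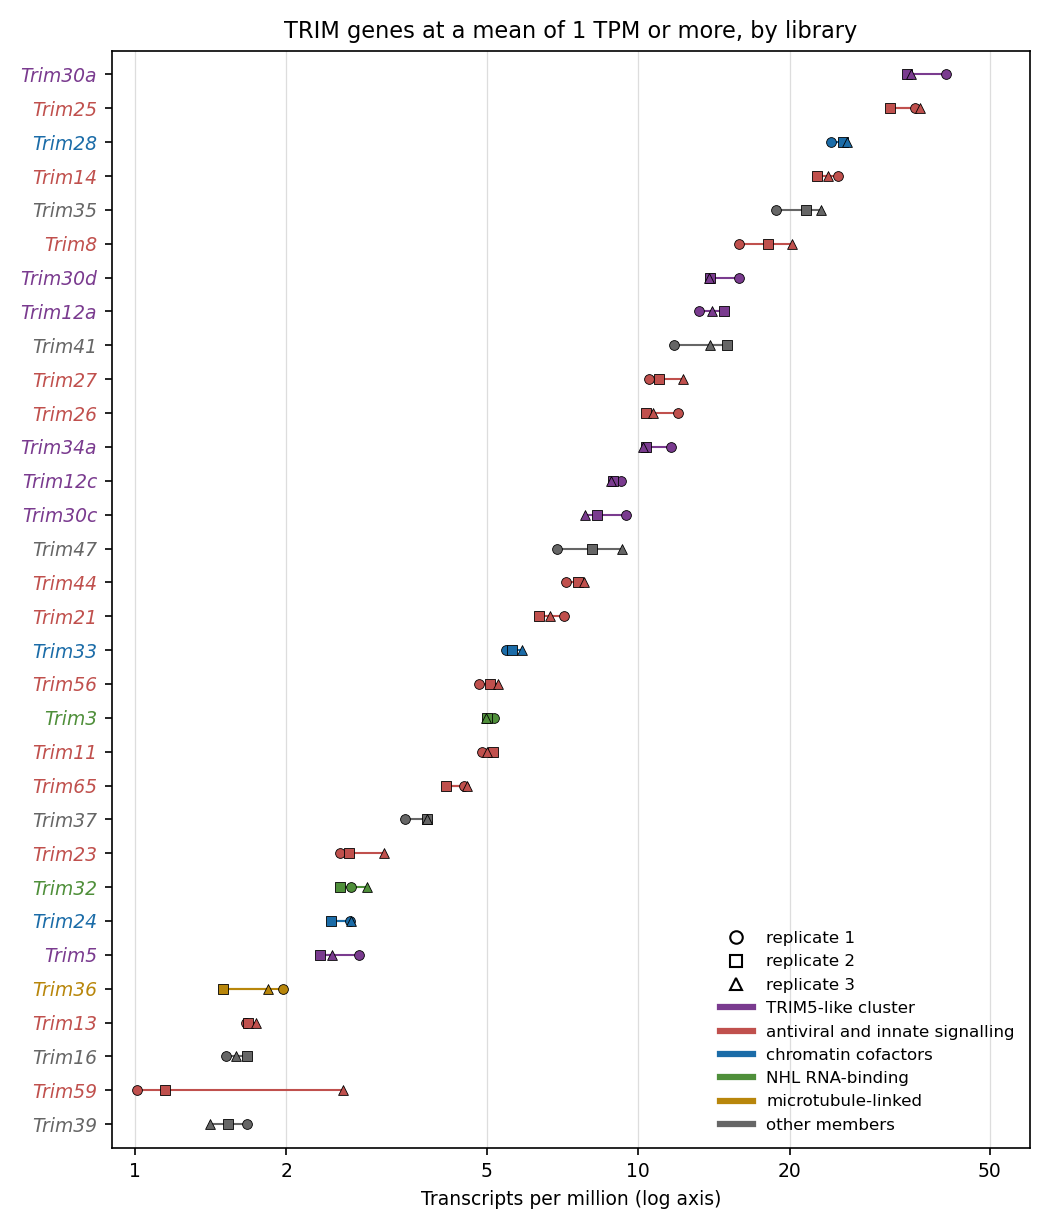
TPM (log axis) of the 32 members at 1 TPM or more in each library, in order of the mean and coloured by role. The 3 symbols of a gene lie close together except for Trim59, where replicate 3 is at 2.59 TPM and the others are at 1.01 and 1.15 TPM.

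The members known from antiviral and innate signalling took the largest share, 41.4% of the family, with 13 of 18 reaching 1 TPM in each library. Trim25 (ENSMUSG00000000275.16, chr11:88999376-89020293), a ligase for the RNA sensor RIG-I and a partner of the antiviral protein ZAP, had 35.54, 31.63 and 36.25 TPM. Trim14, which lacks a RING and supports MAVS and cGAS signalling as an adaptor, had 25.01, 22.66 and 23.88 TPM, and it overlaps Nans on the other strand. Trim8, which ubiquitinates the kinase TAK1, had 15.88, 18.09 and 20.20 TPM. Trim27 had 10.51, 11.00 and 12.30 TPM, and Trim26, a ligase for the transcription factor IRF3, had 12.00, 10.36 and 10.70 TPM. Replicate 1 was lowest for Trim8 and Trim27 and highest for Trim26. For Trim14 it was highest on TPM but lowest on counts scaled by library size (45.7, 48.7 and 48.4 counts-per-million).

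Trim21, the cytosolic receptor for antibody-coated viruses, had 7.14, 6.36 and 6.67 TPM, and its promoter holds 2 overlapping motif matches within 28 bases after the start. Trim44, a member without a RING, had 7.19, 7.60 and 7.81 TPM. Trim56, linked to signalling from cytosolic DNA, had 4.82, 5.08 and 5.28 TPM, Trim11 had 4.89, 5.15 and 5.02 TPM, and Trim65, a ligase for the RNA sensor MDA5, had 4.50, 4.16 and 4.57 TPM. Trim23, which carries an ARF-type GTPase domain, had 2.56, 2.66 and 3.13 TPM. Trim13, anchored in the endoplasmic reticulum, had 1.66, 1.68 and 1.74 TPM. Trim62, a ligase for CARD9, was just below the limit with 0.81, 0.85 and 1.14 TPM. Trim38, known for turning over TAB2 and the adaptor TRIF, had 5 counts in the 3 libraries together and a mean of 0.01 TPM, and Trim15 and Trim31 had 7 and 1 counts. These 3 were far below the rest of the group.

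The listed genes with which these ligases work were present where they could be matched. Each of 9 genes for ubiquitin transfer reached 1 TPM in each library, and their median was 28.4 TPM. Ube2d3 was highest at 93.7 ± 5.87 TPM and Ube2v1 next at 40.0 ± 0.68 TPM, while Ube2w (6.20 ± 0.08 TPM) and Ube2d1 (7.62 ± 0.53 TPM; all SD, n = 3) were lowest. All 7 RNA and DNA sensing genes reached it, with a median of 16.4 TPM. Zc3hav1, which encodes ZAP, stood at 31.5 ± 1.05 TPM and Ddx58, which encodes RIG-I, at 23.9 ± 3.48 TPM, while Mavs (10.5 ± 0.88), Ifih1 (10.2 ± 1.06) and Tmem173, which encodes STING (6.93 ± 1.78 TPM; SD, n = 3), were lower. The symbol used for cGAS in that list matched no gene of the files.

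For the brake that Trim30a exerts, both targets were present at unequal levels: Tab2 at 23.2 ± 1.38 TPM and Tab3 at 2.20 ± 0.25 TPM (SD, n = 3). All 6 NF-kB genes of the list were at 1 TPM or more, with a median of 6.49 TPM. Ikbkg stood at 7.82 ± 0.65 TPM and Traf6 at 4.82 ± 0.15 TPM. For antibody-dependent degradation by Trim21, all 5 listed genes were present with a median of 21.03 TPM, from Vcp at 62.3 ± 7.65 and Psma1 at 34.6 ± 3.95 down to Nploc4 at 11.3 ± 0.46 and Ufd1 at 7.38 ± 0.36 TPM. The 4 TRIM proteins whose genes carry other symbols were split, with Pml, the organiser of nuclear bodies, at 11.6 ± 1.66 TPM and Mid1 at 4.54 ± 1.01 TPM, and Mefv, which encodes pyrin, at 0.49 ± 0.08 TPM and Mid2 at 0.05 ± 0.01 TPM (SD, n = 3). Unlike the Trim genes these 4 were chosen by name.

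The chromatin cofactors had 3 of 4 members at 1 TPM or more and 10.3% of the family's TPM. Trim28 (ENSMUSG00000005566.14, chr7:12999114-13031035), the corepressor that KRAB zinc finger proteins bring to their targets, had 24.18, 25.51 and 25.95 TPM. Trim33, which acts with SMAD4, had 5.47, 5.63 and 5.89 TPM, and Trim24, a coregulator of the retinoic acid receptor, had 2.68, 2.45 and 2.69 TPM. Trim66, otherwise known from germ cells, had 21 counts in all and 0.01 TPM. All 7 listed partners were at 1 TPM or more, with Cbx3 at 19.0 ± 2.81, Chd3 at 17.9 ± 1.31, Rara at 7.73 ± 0.37 and Cbx5 at 5.61 ± 0.60 TPM (SD, n = 3). Setdb1, the histone methyltransferase that Trim28 recruits, was at 7.84 ± 0.55 TPM.

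Of the NHL members, named for a C-terminal propeller that binds RNA, Trim3 had 5.17, 5.01 and 4.99 TPM and Trim32 had 2.69, 2.56 and 2.89 TPM. Trim2 had 0.41, 0.31 and 0.43 TPM, and Trim71, a stem cell factor, had no count. Among the members linked to microtubules, Trim36 had 1.97, 1.5 and 1.84 TPM. The next of these, Trim46, had 18 counts, and 61.7% of the 50-base stretches of its most abundant protein-coding transcript are shared with its antisense neighbour Krtcap2. Since strand is not given in the sources used here, counts in those shared stretches cannot be assigned to either gene. How many of the 18 lie there was not measured.

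Of the 16 remaining members, 6 were at 1 TPM or more, with 15.5% of the family's TPM. Trim35, first described for its part in blood cell fate, had 18.80, 21.55 and 23.11 TPM. Trim41 had 11.77, 15.02 and 13.90 TPM and overlaps Rack1 on the other strand. Trim47 had 6.91, 8.09 and 9.29 TPM and overlaps Trim65 on the same strand. Trim37, which limits centriole assembly, had 3.45, 3.80 and 3.81 TPM. Trim16, which acts in the clearance of damaged lysosomes, had 1.52, 1.67 and 1.59 TPM, and Trim39 had 1.67, 1.53 and 1.41 TPM. On TPM, replicate 1 was the lowest library for 5 of these 6 and the highest for Trim39. It was lowest on TPM for 16 of the 32 members at 1 TPM or more and for 45.8% of all genes at that level. On counts scaled by library size Trim16 was lowest in replicate 3 instead (9.95, 10.8 and 9.27 counts-per-million). The highest of this group below 1 TPM was Trim7 with 0.38, 0.36 and 0.64 TPM.

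Below 1 TPM in the mean were 36 members, of which 7 lay between 0.1 and 1 TPM and 29 below 0.1 TPM. In the quantification from alignments, no count at all was given to 14 of them. A count of 0 allows up to 3 counts, which for these genes corresponds to at most 0.00322 to 0.0516 TPM, for counting error only. The 14 include all 4 muscle members, Trim54, Trim55 and Trim63, the MuRF ligases of the sarcomere, and Trim72, which reseals the muscle membrane. They include 4 of 7 members known from germ cells and early embryos, Trim43b, Trim60, Trim61 and Trim69. Trim43c was the highest of those 7, with 6 counts and 0.02 TPM. Trim10, known from red blood cell development, had no count and Trim58, known from the same cells, had 1, and the erythroid markers Hba-a1 and Hbb-bs had none either. The second quantification, described further on, gave 4 of the 14 a level above 0: Trim52 (0.332, 0.0496 and 0.0254 TPM), Trim63 (0.0657, 0.0283 and 0.0106 TPM), Trim43b (0.0431, 0.00736 and 0 TPM) and Trim71 (0.00538, 0 and 0.000856 TPM). In replicate 1 each of these 4 was above the limit that a count of 0 allows in the first. On chromosome 17, Trim26 at 11.0 ± 0.87 TPM (SD, n = 3) is followed by its neighbours Trim15, Trim10, Trim40 and Trim31, which had 0 to 7 counts each.

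The labelled cell type was checked against its markers. All 10 macrophage genes, among them Lyz2, Cd68 and Csf1r, were at 1 TPM or more with a median of 232 TPM, and none of 25 markers of neutrophils, dendritic cells, T and NK cells, B cells, red cells, mast cells and stroma reached it. Expected counts on genes totalled 33825547, 54667365 and 43176007 in replicates 1, 2 and 3. The libraries differed in 2 other lists. The genes listed as nuclear long noncoding RNAs summed to 917.71, 480.3 and 399.89 TPM, highest in replicate 1. Malat1 and Gm26917 held most of that sum. Tug1 was nearly level at 18.22, 17.98 and 18.02 TPM. Neat1 had 41.74, 41.63 and 33.72 TPM, but 452, 279 and 208 counts-per-million on counts scaled by library size. Malat1 had 597.25, 383.15 and 304.33 TPM and Gm26917 had 260.32, 37.50 and 43.79 TPM, while Kcnq1ot1 had 0.18, 0.04 and 0.03 TPM and Meg3 was at 0. Cell division genes had medians of 1.43, 1.495 and 5.43 TPM, with all 10 highest in replicate 3. On deposited TPM 66.1% of all genes at 1 TPM or more were highest in that library.

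Counts differed between the libraries by more than counting error in 22 of the 40 members that could be tested (55%), by a chi-square test against effective library sizes with Benjamini-Hochberg adjustment over all 13494 genes tested. The background was 50.1%, so the share among the members is near that of all genes. At an unadjusted p under 0.05 the chi-square test gave 25 members. The other 28 had fewer than 30 counts in all, 14 of them none. Differences were small in size: the highest library was 1.13 times the lowest in the median member at 1 TPM or more, and 1.17 times in the median gene. The median SD of log2(TPM + 1) was 0.076 over the members and 0.101 over all 9944 genes at that level. With TPM rescaled over protein-coding genes this order reversed, at 0.111 and 0.103. In the second quantification rescaled in the same way both were 0.130, so the members did not vary less on every scale.

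The 7 expressed genes of the chromosome 7 cluster all had their highest normalized count in replicate 1, though for Trim12c (60.8, 60.7 and 54.6 CPM, counts-per-million scaled by effective library size) and Trim12a (27.6, 26.8 and 22.4 CPM) replicate 2 was close to it. Among the other 25 members at 1 TPM or more, 7 were highest in replicate 1, 9 in replicate 2 and 9 in replicate 3, and 27.2% of all genes at that level were highest in replicate 1. The 7 were all called, with chi-square adjusted p (Benjamini-Hochberg) from 9.9e-56 for Trim30a to 0.0037 for Trim5. Trim30a had 273, 234 and 217 CPM, Trim30d had 74.5, 65.6 and 60.7 CPM, and Trim34a had 50.7, 46.9 and 42.1 CPM in replicates 1, 2 and 3. In each of these the 3 libraries keep the same order, and the highest is 1.2 to 1.26 times the lowest. On deposited TPM, Trim12a was highest in replicate 2 instead, and the other 6 stayed highest in replicate 1.

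Of 9 interferon response genes, 7 were highest in replicate 1 on normalized counts. The chi-square test called 8 of the 9, beside 50.1% of all genes tested. Ifit2 had 104.18, 77.77 and 71.81 TPM and Ifit3 had 88.23, 77.70 and 64.53 TPM, the highest of that list, while Irf9 (14.25, 14.43 and 15.29 TPM) and Usp18 (10.14, 10.28 and 9.75 TPM) were lowest. Also highest in replicate 1 were 5 of 7 RNA and DNA sensing genes and all 4 TRIM genes with other symbols. This held for 4 of 10 macrophage markers, 3 of 6 NF-kB, 2 of 9 ubiquitin transfer, 2 of 7 chromatin and 0 of 10 cell division genes. Of the sensing genes 6 were called, of the macrophage markers all 10, and of the 4 TRIM genes with other symbols 2, Pml and Mid1. Called too were 1 of 6 NF-kB, 6 of 9 ubiquitin transfer, 4 of 7 chromatin and all 10 cell division genes. In all, 12 of the 22 called members were highest in replicate 1, 5 in replicate 2 and 5 in replicate 3. That is 30%, 12.5% and 12.5% of the 40 tested, beside 15.8%, 14.6% and 19.8% of all genes tested. Of the 12 highest in replicate 1, 7 are the cluster genes, which lie side by side and include near copies. The rest are Trim25, Trim26, Trim36, Trim39 and Trim17, so the 30% does not describe the family outside the cluster. Replicate 1 also had the highest sum of the nuclear noncoding RNA list given above, most of it Malat1 and Gm26917. The part of that in these differences was not tested. With replicate 1 left out, 12 of 40 members (30%) were called by the chi-square test, beside 27.5% of all genes, and 6 of the 7 cluster genes still differed between replicates 2 and 3 (adjusted p from 1.3e-06 for Trim30a to 0.012 for Trim30d), while Trim5 did not pass (adjusted p = 0.63). With replicate 3 left out, 16 of 40 members (40%) were called, beside 35.5% of all genes. Between replicates 1 and 2 Trim12c (chi-square adjusted p = 0.87), Trim12a (0.56) and Trim30c (0.068) then did not pass, and the other 4 cluster genes did.

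Trim25, the next highest member after Trim30a, had normalized counts of 359, 328 and 344 CPM (chi-square adjusted p = 7.4e-13), and Trim8 had 100, 116 and 119 CPM (adjusted p = 5.8e-15). Trim28 had 66.5, 73.6 and 76.5 CPM (adjusted p = 3.9e-06). Trim8 and Trim28 were lowest in replicate 1, the library where the cluster genes were highest. Trim25 was highest in replicate 1 on this scale and in replicate 3 on deposited TPM, so its order rests on the scaling. Of the chromatin and NHL members only Trim28 was called. Trim3, with normalized counts of 20.4, 20.1 and 20.0 CPM, varied least of the 32 (adjusted p = 0.94).

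**Figure D3:**
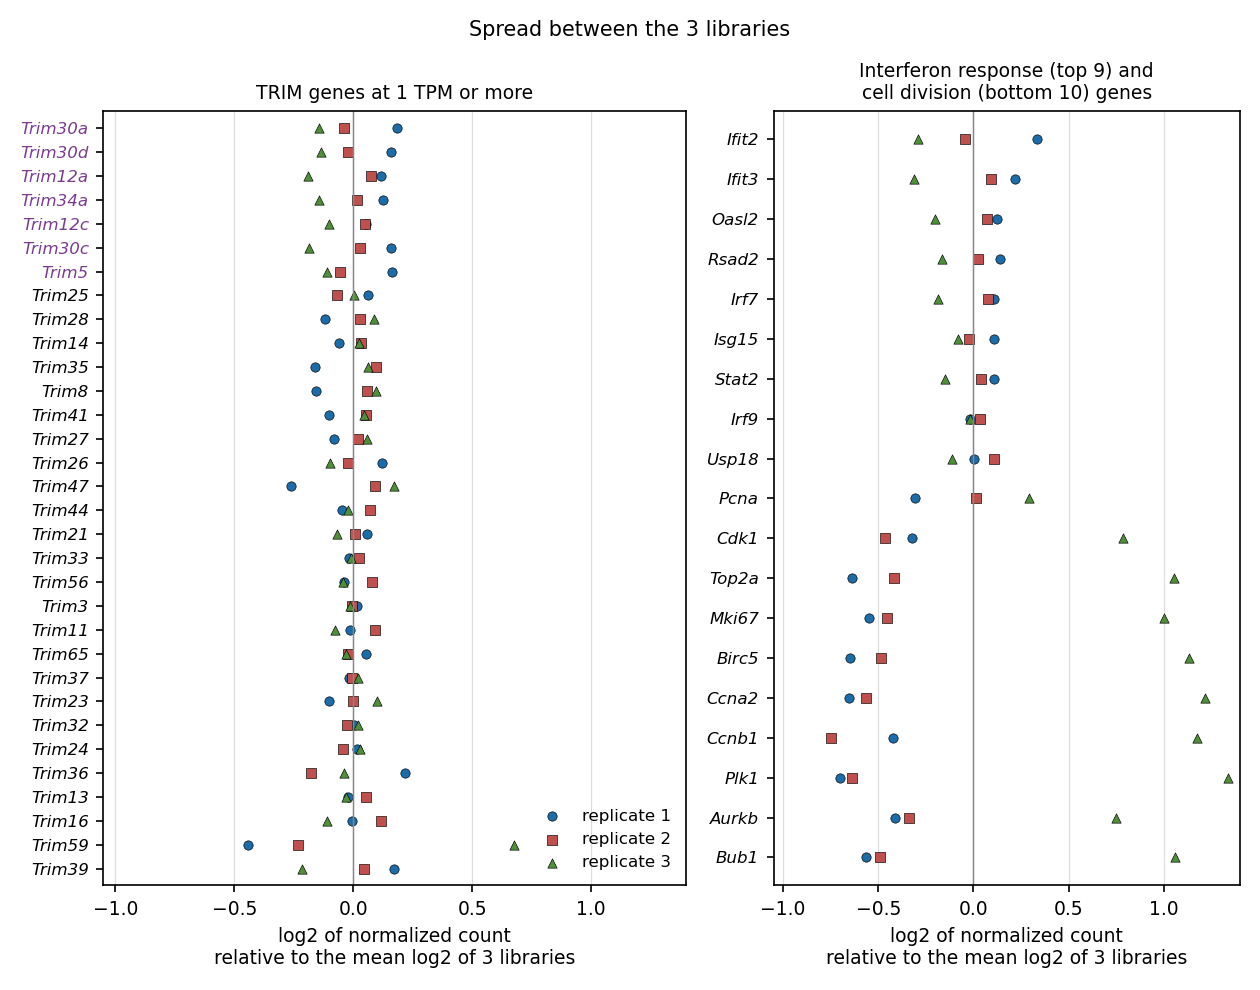
Log2 of the normalized count in each library relative to the mean log2 of the 3 libraries, for the 32 members (left, cluster genes on top in purple) and for interferon response and cell division genes (right). Replicate 1 is highest in all 7 cluster genes, with replicate 2 beside it for Trim12a and Trim12c, and Trim59 is the only one of these members whose libraries are 2 times apart, with replicate 3 high as in the cell division genes.

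Of the members at a mean of 1 TPM or more, only Trim59 differed at least 2-fold between libraries on deposited TPM, where 3.59% of genes at 1 TPM or more did. Trim59, a membrane-bound member, had 1.01, 1.15 and 2.59 TPM, a ratio of 2.56, and normalized counts of 5.15, 5.96 and 11.2 CPM (chi-square adjusted p = 9.9e-26). Replicate 3 alone was high and the other 2 were nearly level. The same library was highest for 66.1% of all genes at 1 TPM or more on deposited TPM, and for 38.6% on normalized counts. It was highest for all 10 cell division genes on both scales. Pcna had 54.16, 64.87 and 86.53 TPM, Cdk1 had 5.29, 4.70 and 13.11 TPM, Aurkb had 1.10, 1.22 and 2.67 TPM and Bub1 had 0.62, 0.71 and 1.74 TPM. In these bulk samples more dividing cells and more of this RNA per cell cannot be told apart. With replicate 3 left out, no member was 2 times apart and Trim59 was not called (adjusted p = 0.24). The next largest ratios were 1.34 for Trim47, 1.31 for Trim36, 1.28 for Trim41 and 1.27 for Trim8. Below 1 TPM, Trim45 (normalized counts 1.34, 2.59 and 2.26 CPM, chi-square adjusted p = 0.0011), Trim17 (0.97, 0.41 and 0.26 CPM, adjusted p = 0.00013) and Trim62 (5.35, 5.81 and 7.10 CPM, adjusted p = 0.0099) were also called.

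Most of the signal lay on transcripts annotated as protein-coding. Their share of a gene's transcript TPM had a median of 99.2% over the 32 members and 97.6% over all 9379 protein-coding genes at that level, and it was over 99% in 16 members. It was under 90% in 7 of 32 members (21.9%), against 27.1% of all genes. Trim28 had the lowest share, 43.5% ± 4.19 (SD, n = 3). A retained intron transcript of 565 bases at its 3′ end took 41.4% ± 2.73 of its TPM and a processed transcript of 851 bases took 12.4% ± 0.76. Because TPM divides by length, these short models weigh more in TPM than in reads: 85.1% ± 2.02 of the Trim28 counts were on the protein-coding transcript. That transcript alone had 9.88, 10.52 and 12.54 TPM, lowest in replicate 1 as was the gene. The gene as annotated overlaps Zbtb45 on the other strand, while 100% of the 50-base stretches of the protein-coding transcript of Trim28 were found in no other gene.

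Trim12a followed with 52.3% ± 7.79 of its TPM and 66.5% ± 1.60 of its counts on protein-coding transcripts (SD, n = 3). A processed transcript of 562 bases at the 3′ end of Trim12a had 4.15, 6.92 and 6.79 TPM, and the protein-coding one had 7.02, 6.37 and 6.22 TPM. Replicate 1 was therefore highest for the coding transcript of Trim12a, as for the other cluster genes, and lowest for the short one. Trim26 had 73.8% ± 6.01, Trim47 had 75.8% ± 8.32 and Trim3 had 78.4% ± 4.61 of TPM on protein-coding transcripts. In Trim14, at 84.2% ± 11.4, the libraries differed: a processed transcript of 670 bases had 5.16 TPM in replicate 1 and 0.35 and 0.29 TPM in the others. Trim39 completed the 7 with 85.8% ± 2.59. Trim30b, below 1 TPM, had 28.2% ± 3.03 on protein-coding transcripts and most of the rest on a retained intron transcript of 3514 bases.

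**Figure D4:**
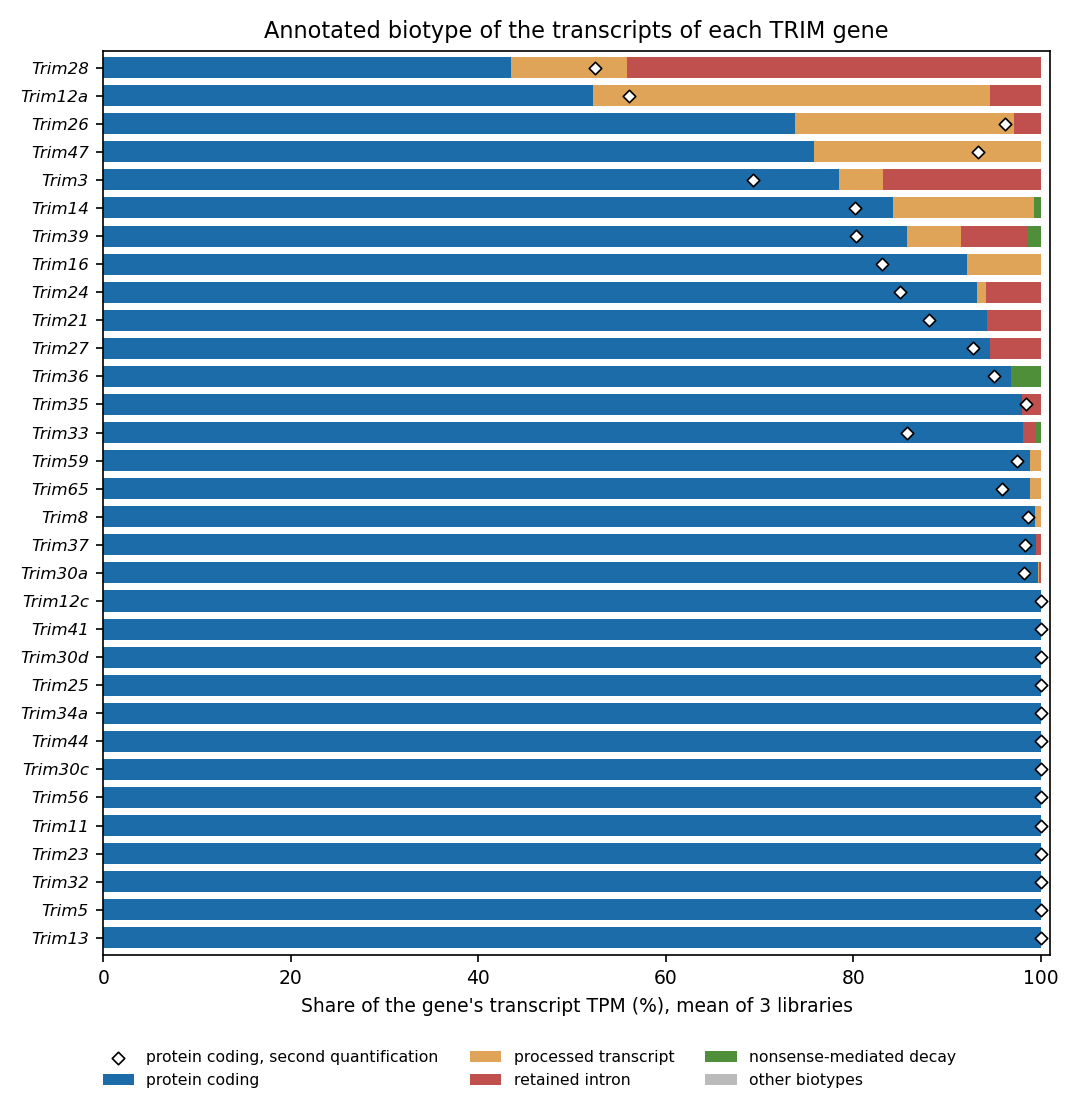
Share of each member's transcript TPM by annotated biotype, mean of 3 libraries, with the protein-coding share of the second quantification as diamonds. Trim28 and Trim12a have the least protein-coding TPM, 43.5% and 52.3%, and for Trim26 and Trim47 the second quantification lies above 90%.

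Each library was quantified by the authors in 2 ways, once from alignments and once, as taken from the column names, from the reads directly. After the median difference between them was taken away, none of the 32 members was 2 times apart between the 2, where 6.12% of 10254 genes were. With no taking away of the median, 19 were. The log2 ratio of the first to the second was highest for Trim28 (0.34), Trim47 (0.20), Trim35 (0.15), Trim26 (0.13) and Trim44 (0.12) and lowest for Trim25 (-0.19), Trim14 (-0.17), Trim30c (-0.15), Trim24 (-0.14) and Trim36 (-0.13). With TPM rescaled so that the protein-coding genes alone make up the whole, Trim28 had 101.5 ± 3.90 in the first and 82.6 ± 5.74 in the second, and Trim30a had 147.8 ± 18.7 and 151.0 ± 16.2 (SD, n = 3). Trim25 had 138.7 ± 7.60 and 160.9 ± 10.4 on that scale, so Trim30a and Trim25 change places between the quantifications.

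The copies of the cluster gave like levels in both, on the scale of protein-coding TPM. Trim34a had 43.3 ± 4.45 and 42.9 ± 3.97, Trim12a had 56.5 ± 4.50 and 56.4 ± 5.67, Trim12c had 36.2 ± 2.33 and 36.4 ± 1.30, and Trim5 had 10.2 ± 1.14 and 10.1 ± 1.17 (SD, n = 3). Trim34b had 0.17 ± 0.08 and 0.31 ± 0.16, still far below Trim34a. The transcripts were assigned less evenly than the genes. The processed transcript of Trim26, 2249 bases long, took 23.3% ± 5.32 of that gene's TPM in the first quantification and 0.20% ± 0.35 in the second, and the protein-coding share of Trim47 was 75.8% and 93.4%. In the second, the retained intron transcript of Trim28 took 22.7% ± 6.44 and its processed transcript of 851 bases took 23.1% ± 1.27. The mean protein-coding share of Trim28 was the lowest of the 32 in both, at 52.4% ± 7.27 in the second, where Trim12a at 56.1% ± 3.60 lay within that SD.

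**Figure D5:**
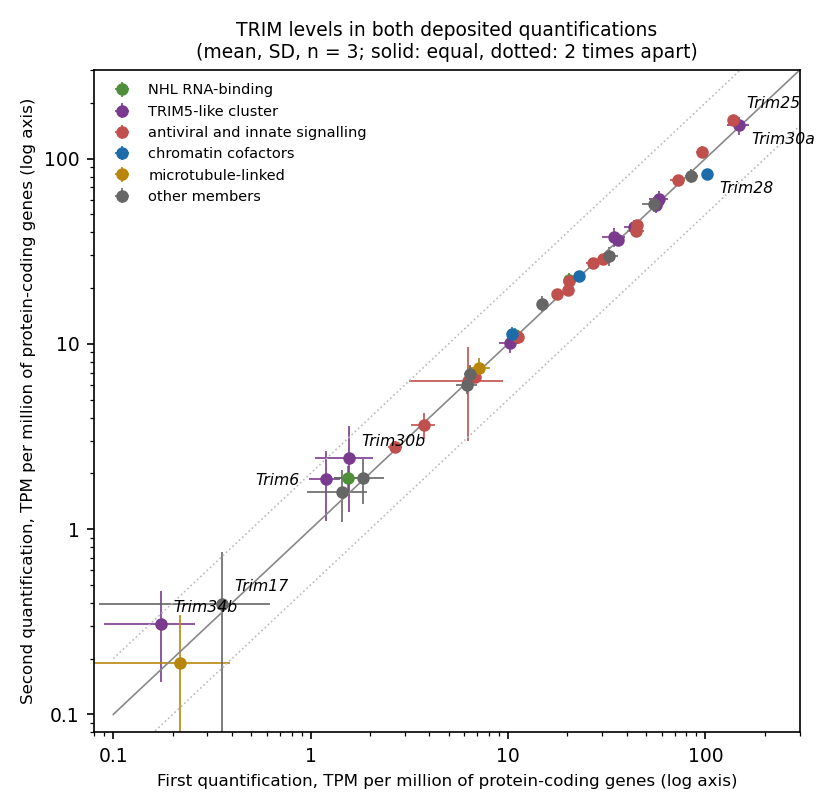
Level of 42 members in the first (horizontal) and second (vertical) quantification, each rescaled over protein-coding genes, on log axes with SD of 3 libraries. Members above 2 TPM on this scale lie near the solid line of equality, with Trim28 farthest to the right of it, and scatter is wider for Trim30b, Trim6 and Trim34b.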

How the data were processed

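Each library came with a gene table and a transcript table that hold expected counts and TPM, made by the authors from alignments to mm10 transcripts of GENCODE M21. A second transcript table holds estimated counts and TPM under other column names. From those names alone it was taken to be made by the authors from the reads without those alignments. Strandedness, tool names and versions: not given in the sources used here. TPM as deposited is a share of all entries after correction for effective length, so abundant short RNAs set its scale. Protein-coding genes held 24.2%, 24.1% and 26.3% of TPM in replicates 1, 2 and 3 in the first quantification and 17.6%, 9.17% and 8.32% in the second, so the second was also rescaled over protein-coding genes. The authors' posterior standard deviation of a count was 0 for 22 of the 32 members at 1 TPM or more and at most 0.477% of the count, and was not used further.

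Spike-in, phage and numbered entries were left out of library sizes. Counts were rounded, and each gene with a summed count of 30 or more was tested for differences between libraries by a chi-square test against TMM effective library sizes (edgeR 4.0.16), with Benjamini-Hochberg adjustment at 0.05 over all genes tested. With 1 group, edgeR's quasi-likelihood test has no coefficient to test. An edgeR model with an intercept only gave a common coefficient of variation of 14.4%, and medians of 8.25% for the 32 members and 8.32% for genes at that level. The test was tested on simulated data drawn with counting error only, as the test assumes. Such data hold no further spread between libraries, so they cannot show how the test behaves where there is one. The quantifications were set side by side as log2 ratios, after adding 0.1 to each. A count of 0 allows up to 3 counts.

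Named with values are all members at a mean of 1 TPM or more, the extremes in spread, coding share and quantification ratio, the highest lower member of each role group, and the highest and lowest 2 genes of each list, cell type markers apart. The promoters of the 3 highest cluster genes were fixed by rule. The coding starts, the motifs, the promoters of Trim34a and Trim34b, and other genes were chosen after values were seen. Members and lists were chosen with earlier results of these data known, and some listed genes are not reported here. Promoters are RefSeq's (GRCm38.p6), and transcripts GENCODE's. Copies were aligned with a match score of 1. Alternatives varied threshold, scale, quantification, filter and libraries. Scripts ran in R 4.3.3 (DESeq2 1.42.0) and Python 3.11.15 (pandas 2.3.3, scipy 1.17.1, numpy 2.4.6).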

Additional observations from a re-analysis of the deposited data

How the results depend on the processing

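No paired analysis was possible because the series has only 1 group. The number of members at 1 TPM or more in every library, 32, was 24 to 39 under its alternatives. The median level of the members, 7.08 TPM as the mean of the library medians, was 28.5 with TPM rescaled over protein-coding genes, 3.202 in the second quantification and 27.6 in the second rescaled in the same way, an alternative added after seeing the data, and 7.0025 to 7.13 with each library left out. The number of members whose counts differed, 22, was 22 with DESeq2 size factors or total counts (beside 49.7% and 51.9% of all genes), and 27 or 67.5% of members in the second quantification (58.9% of all genes). It was 12 to 23 with each library left out: 30% of members without replicate 1, 57.5% without 2 and 40% without 3, beside 27.5%, 42.2% and 35.5% of all genes. With total counts Trim41, Trim44 and Trim56 lost their call (adjusted p = 0.23, 0.41 and 0.14) and Trim21, Trim65 and Trim6 gained one (0.0078, 0.016 and 0.047). The number 2 times apart between libraries, 1, was 2 with rescaled TPM, where Trim45 was added, 0 at a mean of 5 TPM or more, 19 in the second quantification, 3 in the second rescaled, and 0 to 1 with each library left out. The median SD of log2(TPM + 1), 0.076 beside 0.101 for all genes, was 0.111 beside 0.103 with TPM rescaled over protein-coding genes. It was 0.465 beside 0.482 in the second quantification and 0.130 for both there after rescaling. The median protein-coding share, 99.2%, was 99.4% at 5 TPM or more, 98.2% in the second quantification, 99.9% as a share of counts and 98.9% to 99.3% with each library left out. Without taking away the median, 19 members and not 0 were 2 times apart between quantifications. These counts, levels and shares have no sign to reverse, but the order of close values did change. Trim30a and Trim25 changed places between quantifications, and members and all genes did so in median SD with the rescaling. The highest library changed between TPM and normalized counts for Trim25, Trim12a, Trim14, Trim35, Trim44, Trim33, Trim56, Trim13 and Trim65. Of the 32, those highest in replicates 1, 2 and 3 were 12, 4 and 16 on TPM and 14, 9 and 9 on normalized counts. The causes of these moves were not tested. The levels of all 32 members at 1 TPM or more moved by over 1 SD with the rescaling and with the second quantification. Both change the scale on which levels are given. Leaving out 1 of 3 libraries cannot move a mean by 1 SD of the 3, so that setting could not show such a move. At this depth 28 members had fewer than 30 counts and were not tested, and with no filter 22 of 54 were called (40.7%, beside 31.7% of all genes). The copies in the cluster share reads.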

Other observations

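Members at 1 TPM or more were unevenly placed on the chromosomes. Chromosome 7 held 16 members, of which 10 reached a mean of 1 TPM, and they summed to 134.4 TPM. Besides the cluster these were Trim28, Trim3 and Trim21. Chromosome 11 held 11 members, 7 of them at 1 TPM or more with 71.4 TPM in all, among them Trim25, Trim41 and Trim47. None of the 6 members on chromosome 9, which include Trim43a, Trim43b, Trim43c and Trim42, nor of the 4 on chromosome 8, which include Trim60, Trim61 and Trim75, reached 1 TPM, and they summed to 0.04 and 0.0033 TPM. Uniqueness was low outside the chromosome 7 cluster too. In the most abundant protein-coding transcript of Trim43a, Trim43b and Trim43c, 51.9%, 51.2% and 40.7% of 50-base stretches occur in no other gene, but these genes had 1, 0 and 6 counts in all. Of the 32 members at 1 TPM or more, Trim13 was the only one outside the cluster with less than 90% unique stretches, at 84.9%.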
